A study of Mus musculus with 54 samples.

Results

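The genes that make, import and use carnitine, 10 in all, were followed in the liver of mice fed the plasticizer di-isononyl phthalate (DINP). They were chosen by name from the scheme of carnitine synthesis and the carnitine shuttle: Tmlhe, Shmt1, Shmt2, Aldh9a1 and Bbox1 for synthesis, Slc22a5 for uptake, and Cpt1a, Slc25a20, Cpt2 and Crat for the shuttle. Of these 10 genes, 9 had an entry among the 20162 rows (20143 gene symbols) of the expression table, and all 9 passed the filter on low values. Tmlhe, which lies on the unplaced scaffold GL456233.1 of the GENCODE M21 annotation, was not analysed here.

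The mice were wildtype C57BL/6J males, housed singly, that ate a high-fat diet freely from 8 weeks of age and received a gelatin pellet each day for 20 weeks. The pellet was a placebo for 14 control mice and carried DINP at 1.5 mg/kg bw/d for 13 mice (the low dose), at 15 mg/kg bw/d for 13 mice (the middle dose) and at 150 mg/kg bw/d for 14 mice (the high dose). Total RNA of the medial liver lobe was read from the 3′ end of polyadenylated transcripts. All groups thus share the diet, and no mouse on a standard diet was part of the comparison, which asks how liver expression of these genes changes with the dose of DINP.

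Carnitine is a small carrier molecule made from trimethylated lysine. Trimethyllysine dioxygenase (Tmlhe) hydroxylates this lysine, an aldolase step for which serine hydroxymethyltransferases (Shmt1 in the cytosol, Shmt2 in mitochondria) have been proposed releases glycine, Aldh9a1 oxidizes the resulting aldehyde to butyrobetaine, and Bbox1 hydroxylates butyrobetaine to carnitine in liver and kidney. Slc22a5 encodes OCTN2, the high-affinity transporter that takes carnitine up from blood. Cpt1a on the outer mitochondrial membrane moves a long-chain acyl group from coenzyme A to carnitine, Slc25a20 carries the acylcarnitine across the inner membrane in exchange for free carnitine, Cpt2 returns the acyl group to coenzyme A for beta-oxidation, and Crat does the same exchange for acetyl and other short chains.

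The deposited values are named TPM (a transcript level per unit of transcript length, set to the same total in each library). In each mouse they are whole multiples of 1 step, so they were taken to be whole-number TPM that had been scaled between mice, an inference from the values, and are called scaled TPM from here on. One whole TPM stands for 0.764 to 1.11 in these units, depending on the mouse, so levels of a few units move in coarse steps, and the number of reads behind a value is unknown. A per-length level from a 3′ library understates long transcripts, which limits every comparison between genes. In whole liver, fewer cells of a type and less RNA per cell cannot be told apart. A gene was called different with an adjusted p under 0.05 (limma on log2(value + 1), Benjamini-Hochberg over all 11431 rows with a mean of at least 1), and it counted as a differentially expressed gene (DEG) when its log2 fold change (log2FC) was also beyond 0.5.

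Hepatocyte markers (6 of 6 in the table, Alb the highest with a median of 19860) summed to medians between 36452 and 40237 scaled TPM in the 4 groups. Of 5 muscle and kidney markers, 2 had an entry, Acta1 and Ckm of muscle, and these summed to a median of 0. No kidney marker could be read. In 7 libraries the scaled values summed to under 900000: 2 in the control group, 4 at the low dose, 1 at the middle dose and 0 at the high dose. In those 7 libraries the 5 cholangiocyte markers summed to 37.6 to 254 scaled TPM, against group medians of 18.1 to 21.3. Stellate markers (334 to 395, group medians of 274 to 307), adipocyte markers (38.0 to 96.6, medians of 17.5 to 26.3) and Kupffer cell markers (77.3 to 185, medians of 69.7 to 75.6) were above the group medians there as well. The adipocyte sum rests mainly on Fabp4 and Cidec (medians of 16.7 and 5.08 over all mice). Adipoq, Plin1 and Lep were above 0 in only 8, 3 and 1 of the 54 mice. Of the cholangiocyte markers, Krt7, Epcam and Krt19 had medians of 0, 0.447 and 1.00, beside 6.88 for Sox9 and 12.3 for Spp1. Control replicate 8 stood furthest apart, with a sum of 747258, the lowest pericentral sum (1044, control median 2880) and a hepatocyte marker sum of 25298. It also had the lowest control values of Shmt1, Shmt2, Aldh9a1 and Bbox1 in scaled TPM. Replicate 7 at the middle dose, with 254 for cholangiocyte and 1115 for pericentral markers, had the lowest scaled values of the same 4 genes in its group. Part of this rests on the scaling: before it, 3 control mice had a lower whole TPM of Aldh9a1 than control replicate 8, and replicate 6 at the middle dose was 1 below replicate 7 for Aldh9a1 and for Shmt2. The fits were also made without these 7 libraries, and the calls that changed and the main shifts in values are given below.

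In control liver, Shmt1 had the highest mean level of the 9 genes (73.6 ± 16.7 scaled TPM, SD, n = 14), followed by Shmt2 (65.0 ± 9.56), Slc25a20 (61.7 ± 5.77), Aldh9a1 (52.7 ± 5.18), Bbox1 (50.4 ± 9.77), Cpt1a (41.9 ± 5.26) and Cpt2 (33.3 ± 4.03). Crat (6.09 ± 1.10) and Slc22a5 (3.45 ± 1.11) were far lower. Over all mice, 89.1% of the tested rows lay below Shmt2, 48.0% below Crat and 37.0% below Slc22a5. Neighbours in this order were compared within mice by an exact sign-flip permutation test (2-sided, 8 pairs of neighbours). The steps that did not pass it were Shmt1 over Shmt2 (adjusted p = 0.0597), Shmt2 over Slc25a20 (adjusted p = 0.322) and Aldh9a1 over Bbox1 (adjusted p = 0.265). The drop from Cpt2 to Crat was the steepest, 2.28 on the log2 scale in 14 of 14 control mice (exact permutation test, adjusted p = 0.000977).

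**Figure D1:**
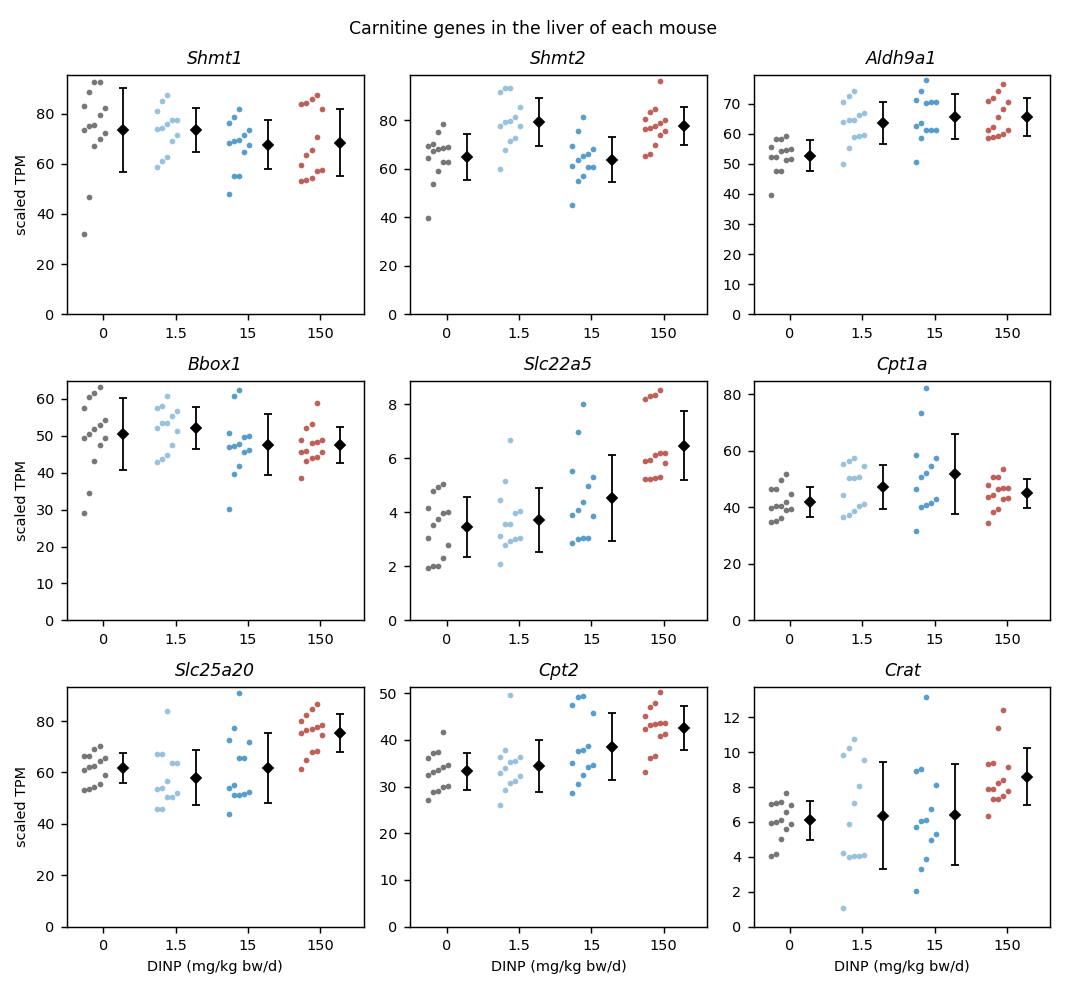
Scaled TPM (y axes, linear from 0) of the 9 genes in each mouse against the dose of DINP (x axes, 0 is control). Each dot is a mouse (n = 14, 13, 13 and 14), and diamonds with bars are the mean ± SD. Slc22a5 at the high dose starts at 5.22, above the highest control mouse at 5.04, Aldh9a1 is raised at each dose, and Shmt2 is raised at the low and the high dose but not at the middle dose.

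Aldh9a1, the dehydrogenase of the penultimate step of carnitine synthesis, was higher at every dose, and no difference between doses passed the test. The control mice lay between 39.8 and 59.2 scaled TPM with a median of 53.3. The mice at the low dose lay between 50.0 and 74.4 (median 64.5), those at the middle dose between 50.5 and 77.8 (median 63.8) and those at the high dose between 58.5 and 76.5 (median 64.0). Most exposed mice were thus above every control mouse: 10 of 13, 11 of 13 and 12 of 14. The log2FC was 0.27 ± 0.06 (SE, adjusted p = 0.0178, limma) at the low dose, 0.31 ± 0.06 (adjusted p = 0.000347) at the middle dose and 0.31 ± 0.06 (adjusted p = 0.00103) at the high dose. Between the middle and high dose the difference was 0.00, with a 95% interval from -0.12 to 0.13, and between the low and high dose it was 0.05 (-0.08 to 0.17). None of the 3 calls against control was lost in any alternative fit or when any mouse was left out, with the adjusted p at the low dose reaching 0.0385 without replicate 12 of that group.

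Shmt2, the mitochondrial serine hydroxymethyltransferase, which also supplies one-carbon units, was higher at the lowest and the highest dose and not at the middle dose. Control mice ranged from 39.8 to 78.4 scaled TPM with a median of 67.7, and mice at the middle dose from 45.2 to 81.4 with a median of 63.8. At the low dose the range was 60.0 to 93.4 (median 79.2), and at the high dose it was 65.2 to 96.1 (median 77.2). The groups overlapped, with 7 of 13 mice at the low dose, 1 of 13 at the middle dose and 6 of 14 at the high dose above the highest control mouse. Directly compared, Shmt2 was lower at the middle than at the low dose (log2FC -0.31 ± 0.08, adjusted p = 0.00274, limma) and higher at the high than at the middle dose (0.29 ± 0.08, adjusted p = 0.00568). Both of these calls held in all alternative fits and whichever mouse was left out. The calls against control stood close to the threshold, at 0.29 ± 0.08 (adjusted p = 0.0426) at the low dose and 0.26 ± 0.08 (adjusted p = 0.0486) at the high dose. They were lost in 18 of 27 and 21 of 28 fits that left out 1 mouse, with the highest adjusted p, 0.0819 and 0.106, without control replicate 8. Without the 7 libraries of low sum the call at the high dose was lost (log2FC 0.20, adjusted p = 0.0728, limma), and that at the low dose was not (0.31, adjusted p = 0.00765). Both were lost with no filter on low values (adjusted p = 0.0748 and 0.0737 at the low and the high dose) and with the replicate block (0.0648 and 0.0701), and the call at the low dose with the 2 groups alone (0.0535). The last 32 bases of Shmt2 overlap the end of Ndufa4l2 on the opposite strand, which had a mean of 2.18 scaled TPM, and the strand setting of the counting is not given in the sources used here.

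Shmt1, the cytosolic enzyme of the pair, and Bbox1, the last enzyme of carnitine synthesis, were not called at any dose. Shmt1 ranged from 32.1 to 92.5 scaled TPM in control mice and from 53.2 to 87.3 at the high dose, with a log2FC of -0.08 (95% interval from -0.30 to 0.13). Bbox1 ranged from 29.0 to 63.2 in control mice and from 38.7 to 59.0 at the high dose, with a log2FC of -0.06 (-0.24 to 0.11). Their values at the other doses lay inside the control range, and with all mice the 95% intervals of the 6 comparisons against control lay between -0.31 and 0.25. The last 184 bases of Shmt1 overlap Smcr8 on the opposite strand, which had a mean of 1.15 scaled TPM. The log2FC of both genes moved with the 7 libraries of low sum, 1 of which, control replicate 8, is the lowest control mouse for both genes. Without the 7 libraries the log2FC at the high dose was -0.23 for Shmt1 (adjusted p = 0.153, limma) and -0.17 for Bbox1 (adjusted p = 0.192), and at the middle dose it was -0.19 for Shmt1 (adjusted p = 0.140) and -0.13 for Bbox1 (adjusted p = 0.245).

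Slc22a5, the carnitine transporter of the cell membrane, had the largest log2FC of the 9 genes. In the control group the lowest, median and highest mouse were at 1.95, 3.64 and 5.04 scaled TPM, and at the low dose at 2.10, 3.58 and 6.67. At the middle dose they were at 2.85, 4.09 and 8.03, and at the high dose at 5.22, 6.02 and 8.54. All 14 mice of the high-dose group were thus above all 14 control mice, a separation that 0.0962% of the 11431 tested rows shared. The gap between the groups was small and rests on the scaling: before scaling, 3 control mice and 4 high-dose mice both stood at 5 whole TPM. The log2FC was 0.09 ± 0.13 (adjusted p = 0.834, limma) at the low dose, 0.31 ± 0.13 (adjusted p = 0.104) at the middle dose and 0.77 ± 0.13 (adjusted p = 7.28e-05) at the high dose. Slc22a5 was higher at the high dose than at the low dose (0.68 ± 0.13, adjusted p = 0.000642) and than at the middle dose (0.46 ± 0.13, adjusted p = 0.00769). The size of the log2FC at the high dose depends on the pseudocount for a gene this low, from 0.44 with a pseudocount of 5 to 0.93 with 0.1.

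Slc25a20, the carnitine-acylcarnitine translocase, was higher in the high-dose group than at either lower dose. Control mice lay between 53.2 and 70.2 scaled TPM (median 62.4) and high-dose mice between 61.2 and 86.5 (median 76.7). At the low dose the values ran from 45.6 to 83.9 (median 54.0) and at the middle dose from 43.9 to 91.0 (median 54.9). Both lower doses thus reached beyond the control range at each end, with 5 of 13 mice in each of them below the lowest control mouse and 1 and 4 above the highest. The log2FC of the high-dose group was 0.39 ± 0.08 over the low dose (adjusted p = 0.00299, limma) and 0.31 ± 0.08 over the middle dose (adjusted p = 0.00624). Over control it was 0.28 ± 0.08 (adjusted p = 0.0487), a call that was lost in 20 of 28 fits that left out 1 mouse and without the 7 libraries of low sum (adjusted p = 0.118). It was also lost with the replicate block (adjusted p = 0.0841), with no filter (adjusted p = 0.0745), with quantile normalization (adjusted p = 0.0570) and with a pseudocount of 0.1 (adjusted p = 0.0504). The other alternative fits kept this call. Apart from fits leaving out 1 mouse, the adjusted p of the alternatives ran from 0.00352 to 0.118 (limma).

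Cpt2, the palmitoyltransferase of the inner membrane, was higher in the high-dose group than in control. Control mice ranged from 27.1 to 41.7 scaled TPM (median 33.4), mice at the low dose from 26.0 to 49.6 (median 34.0), mice at the middle dose from 28.5 to 49.3 (median 37.7) and mice at the high dose from 33.1 to 50.2 (median 43.3). The medians rose with each dose, while the groups overlapped. The log2FC was 0.04 ± 0.08 (adjusted p = 0.896, limma), 0.20 ± 0.08 (adjusted p = 0.0889) and 0.34 ± 0.08 (adjusted p = 0.00720) from the lowest to the highest dose. At the middle dose the adjusted p was 0.0369 without replicate 1 of that group. The high-dose group was also above the low dose (0.30 ± 0.08, adjusted p = 0.0159), a call that was lost without the 7 libraries of low sum (adjusted p = 0.0652).

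Cpt1a, the regulated entry step of the shuttle in liver, was not called at any dose, and its highest mean was at the middle dose. The mice ranged from 34.7 to 51.8 scaled TPM in the control group (median 40.5), from 36.7 to 57.4 at the low dose (median 50.3), from 31.6 to 82.3 at the middle dose (median 50.9) and from 34.5 to 53.4 at the high dose (median 45.4). The log2FC at the low dose was 0.16 (adjusted p = 0.502, limma). It was 0.06 (adjusted p = 0.871) without the 7 libraries of low sum, 4 of which are low-dose mice with 50.3 to 57.4 scaled TPM, and the low-dose median was then 41.2. In the middle-dose group 6 of 13 mice were above the control range and 1 was below it. The log2FC there was 0.26 ± 0.09 (adjusted p = 0.0520, limma), and at the high dose it was 0.10 ± 0.09 (adjusted p = 0.685). The value at the middle dose was called among rows with a mean of at least 5 (adjusted p = 0.0369) and in 8 of 27 fits that left out 1 mouse, with an adjusted p from 0.0124 to 0.136. The log2FC of the high against the middle dose was -0.16 (95% interval from -0.35 to 0.03, adjusted p = 0.231).

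Crat, the carnitine acetyltransferase, was not called against control, although every high-dose mouse was above the control median. The lowest, median and highest values were 4.05, 6.07 and 7.68 scaled TPM in the control group and 6.37, 8.06 and 12.4 at the high dose. At the low dose they were 1.04, 5.89 and 10.7, and at the middle dose 2.04, 6.04 and 13.2. The lower doses thus spread to both sides of the control range: at the low dose 4 mice were below it and 5 above it, and at the middle dose 3 were below and 4 above. Of the 5 above it at the low dose, 4 were the libraries of low sum in that group, and without the 7 such libraries the log2FC at the low dose was -0.35 (adjusted p = 0.383, limma), beside -0.07 with them. The log2FC of the middle against the low dose was 0.36 (adjusted p = 0.203) without these libraries and 0.05 with them. The log2FC at the high dose was 0.44 ± 0.18 (adjusted p = 0.219, limma), and it was called when the control and high-dose groups were fitted alone (adjusted p = 0.00504), a fit that does not use the spread of the lower doses. The high-dose group was 0.51 ± 0.18 above the low-dose group (adjusted p = 0.09995) and 0.46 ± 0.18 above the middle dose (adjusted p = 0.0662). The former was called without the 7 libraries of low sum (0.81, adjusted p = 0.00563), and the latter without replicate 6 (adjusted p = 0.0259) or replicate 13 (adjusted p = 0.0481) of the middle-dose group and with array weights (0.52, adjusted p = 0.0464). The last 59 bases of Crat overlap the end of Dolpp1 on the opposite strand, which had a mean of 36.7 scaled TPM, and reads from the 2 genes cannot be told apart where counting ignores strand. Crat also overlaps 1623 bases of the antisense gene Gm16323, which was not analysed here.

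**Figure D2:**
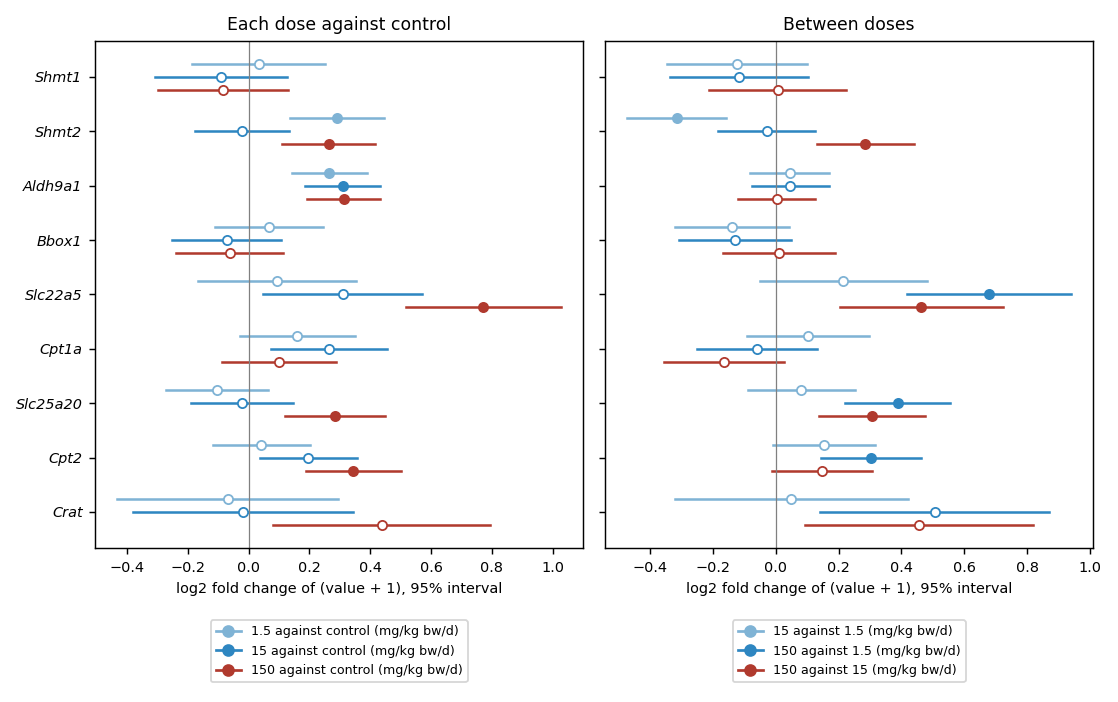
Log2 fold change of value + 1 (x axes) with its 95% interval for each gene, for each dose against control (left) and between doses (right). Filled points had an adjusted p under 0.05 and open points did not. Aldh9a1 is filled at all 3 doses against control, Slc22a5 at the high dose reaches 0.77, and Shmt2 has opposite signs in the first and the last comparison between doses.

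Read as a group, 2 of the 9 genes were called higher at the low dose (Aldh9a1 and Shmt2), where 0.674% of all tested rows were, and 0 were called lower, where 0.525% were. At the middle dose 1 was called higher (Aldh9a1), a share near the background of 7.57% of rows higher, and 0 were called lower, against 6.61% of rows. At the high dose 5 were called higher (Slc22a5, Aldh9a1, Cpt2, Shmt2 and Slc25a20), where 1.49% of rows were, and 0 were called lower, where 0.682% were. With 1 mouse left out in turn these counts of 2, 1 and 5 ran from 1 to 2, 1 to 3 and 3 to 5. By limma's unadjusted p under 0.05, 0 of the 9 genes were lower at any of the 3 doses, and 2, 4 and 6 were higher from the lowest to the highest dose. Of all tested rows, 6.7%, 13.6% and 7.37% were higher by this rule and 5.6%, 13.3% and 6.66% were lower. Slc22a5 was the only DEG among them at the high dose, where 0.647% of rows were DEGs with a higher level, and with a pseudocount of 5 its log2FC of 0.44 was below the DEG limit. The median log2FC of the 9 genes was 0.07, -0.02 and 0.28 from the lowest to the highest dose, beside 0.00, -0.00 and -0.01 over all tested rows. Because the genes were chosen with earlier results of these data known, their shares beside those of all rows are a description only.

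Between doses, Shmt2 was the 1 gene of the 9 called lower at the middle than at the low dose, where 10.5% of rows were. At the high against the low dose 3 were called higher (Slc22a5, Slc25a20 and Cpt2), where 2.55% of rows were, and Slc22a5 was a DEG, as were 0.945% of rows. With a pseudocount of 5 its log2FC there was 0.40, below the DEG limit, while at the high against the middle dose a pseudocount of 0.1 gave 0.55 and made it a DEG. At the high against the middle dose 3 were called higher (Shmt2, Slc25a20 and Slc22a5), a comparison in which 9.85% of rows were. Comparisons with the same control or dose group share its mice, so the counts above do not add up as independent results.

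**Figure D3:**
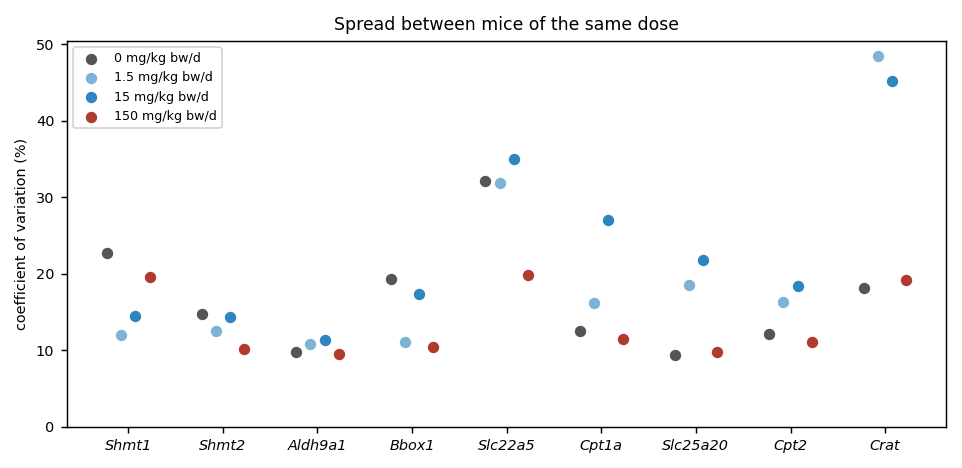
Coefficient of variation between mice of the same dose (y axis, percent, from 0) for the 9 genes (x axis), with 1 dot per dose group. For Crat the low- and middle-dose groups stand at 48.5% and 45.2%, against 18.1% in the control group and 19.2% at the high dose.

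The spread between mice differed by gene and by dose, and is given here as a description with no test. The coefficient of variation of Crat was 48.5% at the low dose and 45.2% at the middle dose, beside 18.1% in the control and 19.2% in the high-dose group. Slc25a20 varied by 18.5% and 21.8% at the lower doses, beside 9.36% and 9.82%. Cpt1a reached 27.1% at the middle dose, beside 12.5% in the control group. Aldh9a1 stayed between 9.53% and 11.3% in every group. For Slc22a5 and Crat the step of 1 whole TPM is coarse beside this spread: at the low dose 5 of 13 mice stood at the same 3 whole TPM for Slc22a5, and 5 at the same 4 for Crat.

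Correlation between mice of the same dose was read for each pair of genes. After the group means were removed, 14 of the 36 pairs of genes were correlated over the 54 mice (2-sided permutation test with 100000 resamples within groups, adjusted p under 0.05 over the 36 pairs), all 14 with a positive sign. By Spearman's rho 11 pairs were called. Within the synthesis genes 6 of 6 pairs were called (median r = 0.54), within uptake and shuttle 7 of 10 (median r = 0.53), and between the branches 1 of 20 (median r = 0.09). By rho these counts were 3 of 6, 7 of 10 and 1 of 20. The pair called between the branches was Bbox1 with Slc25a20 (r = 0.35, permutation test, adjusted p = 0.0265). Its call was lost with quantile normalization (r = 0.29, adjusted p = 0.0729) and without the 2 mice farthest from the median (r = 0.33, adjusted p = 0.0651). The 14 called pairs had r of at least 0.35, a value that 4.86% of all pairs of the 11431 tested rows reached.

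**Figure D4:**
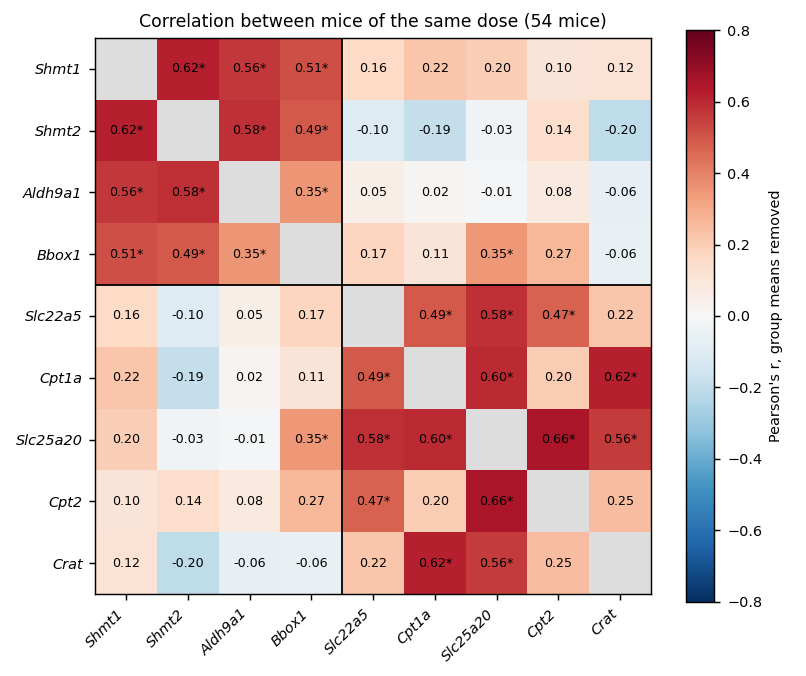
Pearson's r between genes over 54 mice after the mean of each dose group was removed (color and printed value), with an asterisk for an adjusted p under 0.05 over 36 pairs. Black lines separate the 4 synthesis genes from the 5 uptake and shuttle genes. The values within the upper left and lower right blocks run up to 0.62 and 0.66, and those between the blocks from -0.20 to 0.35.

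The tightest pair of the shuttle was Slc25a20 with Cpt2, translocase and inner transferase (r = 0.66, permutation test, adjusted p = 0.00018, rho = 0.59 with an adjusted p of 0.00036). Without the 2 mice farthest from the median of Slc25a20, r was 0.55. Within the groups r was 0.43 in control mice, 0.72 and 0.91 at the lower doses and 0.01 at the high dose, so that the relation was not seen within the high-dose group. Cpt1a varied with Crat (r = 0.62, rho = 0.56, adjusted p = 0.00018 and 0.00153) and with Slc25a20 (r = 0.60, rho = 0.51, adjusted p = 0.000463 and 0.00252). Within the groups r was between 0.35 and 0.77 for the former pair, and for the latter 0.05 in control mice and 0.38, 0.88 and 0.46 from the lowest to the highest dose. Slc22a5 varied with Slc25a20 (r = 0.58, rho = 0.60, adjusted p = 0.000288 and 0.00036), also in all 4 groups, with r from 0.49 to 0.74. Without the 2 mice farthest from the median, these 3 values were 0.56, 0.51 and 0.49, and without the 7 libraries of low sum they were 0.59, 0.62 and 0.63. Cpt1a and Cpt2 were not called as a pair (r = 0.20, rho = 0.03, adjusted p = 0.343 and 0.878), with r of 0.76 at the middle dose and between -0.46 and -0.05 in the other groups.

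In the synthesis branch the relations leaned on few mice. Shmt1 with Shmt2 had r = 0.62 and rho = 0.48 (permutation test, adjusted p = 0.00027 and 0.00252), and r = 0.36 (adjusted p = 0.0501) without the 7 libraries of low sum. Shmt2 with Aldh9a1 had r = 0.58 and rho = 0.51 (adjusted p = 0.0003 and 0.00153), and r = 0.36 (adjusted p = 0.0473) without those libraries. Shmt1 with Aldh9a1 had r = 0.56 and rho = 0.44 (adjusted p = 0.00027 and 0.00679), and r = 0.34 (adjusted p = 0.0696) without them. These 3 pairs were positive in all 4 groups. The 3 pairs of Bbox1 with the other synthesis genes, with r = 0.51, 0.49 and 0.35, had rho of 0.15, 0.25 and 0.11 and turned to r = -0.05, -0.07 and -0.10 without the 7 libraries, so they rest on those libraries, among them control replicate 8 and replicate 7 at the middle dose. Without the 2 mice farthest from the median, the 6 values in this branch ran from 0.06 to 0.47.

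The genes most like each member across mice, by Pearson's r of the same group-centred values over 54 mice, are given as a description with no p. Among the genes most like Crat were Vnn1 (r = 0.81) and Cd36 (0.78). Among those most like Cpt1a were Abcd2 (0.79) and Pltp (0.75), and among those most like Slc25a20 were Chpt1 (0.76) and Ech1 (0.74). For Slc22a5 these were Etfdh, Marchf5 and Ech1 (0.65 to 0.63), and for Cpt2 Tysnd1, Gpd1 and Mrps7 (0.67 to 0.66). On the synthesis side, Shmt2 was most like Hsd3b3 (0.80), Shmt1 like Tlcd2 (0.77), Bbox1 like Dgat2 (0.79, rho = 0.56) and Aldh9a1 like Sult1b1 (0.69). Mice share a library, its scaling and its cell makeup across all their genes, and the first principal component of the group-centred values (12.6% of their variance) had r from 0.31 to 0.55 with the 5 uptake and shuttle genes and from -0.49 to -0.08 with the 4 synthesis genes.

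The sequence before the transcription start is shown for the 5 genes called at the high dose, since these moved in the same direction there. The promoters are from RefSeq on GRCm38.p6, which held 8 of the 10 genes and whose starts need not be those of the GENCODE annotation. The 250 bases before the start are printed 5′ to 3′ on the gene's strand. Capitals mark GGGCGG and CCGGAAG (GC and ETS boxes), GCATGCGC (NRF1) and CCAAT, each on either strand. These lie at chr11:53891704-53891953 for Slc22a5 (minus strand), chr1:167349741-167349990 for Aldh9a1 (plus), chr4:107923590-107923839 for Cpt2 (minus), chr10:127522445-127522694 for Shmt2 (minus) and chr9:108661886-108662135 for Slc25a20 (plus).
Slc22a5: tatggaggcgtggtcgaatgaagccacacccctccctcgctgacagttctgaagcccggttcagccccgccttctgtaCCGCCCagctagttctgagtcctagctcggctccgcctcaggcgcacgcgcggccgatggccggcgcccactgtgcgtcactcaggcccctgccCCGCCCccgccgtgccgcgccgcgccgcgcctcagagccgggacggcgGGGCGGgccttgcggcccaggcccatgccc
Aldh9a1: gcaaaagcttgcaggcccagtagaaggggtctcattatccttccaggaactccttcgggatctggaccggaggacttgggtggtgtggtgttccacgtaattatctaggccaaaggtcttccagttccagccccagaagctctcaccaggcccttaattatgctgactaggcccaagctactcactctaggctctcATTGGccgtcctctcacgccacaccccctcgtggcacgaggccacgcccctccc
Cpt2: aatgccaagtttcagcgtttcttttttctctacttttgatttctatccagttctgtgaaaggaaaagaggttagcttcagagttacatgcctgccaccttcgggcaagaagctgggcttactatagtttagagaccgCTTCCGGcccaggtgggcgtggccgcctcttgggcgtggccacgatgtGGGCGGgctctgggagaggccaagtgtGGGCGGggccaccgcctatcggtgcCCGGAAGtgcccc
Shmt2: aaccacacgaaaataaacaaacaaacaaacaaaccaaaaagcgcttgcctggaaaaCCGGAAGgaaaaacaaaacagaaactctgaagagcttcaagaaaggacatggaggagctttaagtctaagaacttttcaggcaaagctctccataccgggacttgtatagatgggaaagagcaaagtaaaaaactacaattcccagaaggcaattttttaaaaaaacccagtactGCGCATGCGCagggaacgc
Slc25a20: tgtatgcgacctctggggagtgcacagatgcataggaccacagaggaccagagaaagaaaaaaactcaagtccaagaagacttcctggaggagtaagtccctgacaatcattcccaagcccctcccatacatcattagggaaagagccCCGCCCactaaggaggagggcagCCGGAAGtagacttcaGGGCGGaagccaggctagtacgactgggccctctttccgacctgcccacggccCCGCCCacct

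Slc22a5 had 3 GC boxes in this stretch, Cpt2 had 2 with 2 ETS boxes, and Slc25a20 had 3 with 1 ETS box. Shmt2 had 1 ETS box and 2 overlapping NRF1 matches ending 10 bases before the start, and Aldh9a1 had 1 CCAAT box. Over the 300 bases from 250 before to 50 after the start, GGGCGG was found in 5 of the 8 genes and in 35.7% of all 32851 promoters, CCGGAAG in 3 (Cpt2, Shmt2 and Slc25a20) and in 8.86%, GCATGCGC in 1 and in 2.71%, and CCAAT in 3 and in 37.4%. TATAAA was found in Bbox1 alone, against 13.6% of promoters, and TGATGCAA (an ATF4 motif) in 0 of the 8, against 0.895%. The half-site of PPARα and other nuclear receptors, AGGTCA, was found in Cpt1a, against 16.3% of promoters, and 2 such half-sites in the same direction with 1 base between them in 0 of the 8, against 0.0396%. A match is a run of letters only, and no match says nothing beyond this window. G and C made up 72.7% of these 300 bases in Slc22a5 and 42.7% in Shmt2, with a median of 52.7% over all promoters.

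The genes lie apart in the genome (GENCODE M21 on GRCm38). Shmt1 (chr11:60788104-60811718, minus strand) and Slc22a5 (chr11:53864542-53891660, minus) share chromosome 11, and Bbox1 (chr2:110262697-110314560, minus) and Crat (chr2:30400471-30415813, minus) share chromosome 2. Aldh9a1 is at chr1:167349991-167368532 (plus), Cpt2 at chr4:107903981-107923610 (minus), Slc25a20 at chr9:108662088-108684641 (plus), Shmt2 at chr10:127517123-127522444 (minus) and Cpt1a at chr19:3322334-3385733 (plus). All are protein-coding.

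Other genes that carry carnitine or its esters were tested in part: 7 of the 10 on the list had an entry, and 3 of these passed the filter on low values. Crot, the peroxisomal carnitine octanoyltransferase, had 104.6 ± 19.7 scaled TPM in control mice (SD, n = 14) and 138.0 ± 37.9 at the high dose (n = 14), with a log2FC of 0.37 ± 0.13 (adjusted p = 0.125, limma). It was higher at the high than at the low dose (0.52 ± 0.13, adjusted p = 0.0116) and than at the middle dose (0.44 ± 0.13, adjusted p = 0.0120). Slc25a45, a mitochondrial carrier, was also higher at the high than at the middle dose (0.30 ± 0.10, adjusted p = 0.0255), with 15.1 ± 3.03 in control mice. Against control 0 of the 3 tested genes were called at any dose, and 0, 0 and 1 had an unadjusted p under 0.05 from the lowest to the highest dose. Cpt1b, the muscle form of the entry enzyme, and Slc22a4, a relative of Slc22a5, did not pass the filter on low values. Cpt1b had a mean of 0.191 ± 0.382 scaled TPM in control mice (median 0) and 0.882 ± 0.375 at the high dose (median 1.03), with no mouse of either group above 1.07, which is at most 1 whole TPM. Slc22a4 had means of 0.143 to 0.374 in the 4 groups.

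**Figure D5:**
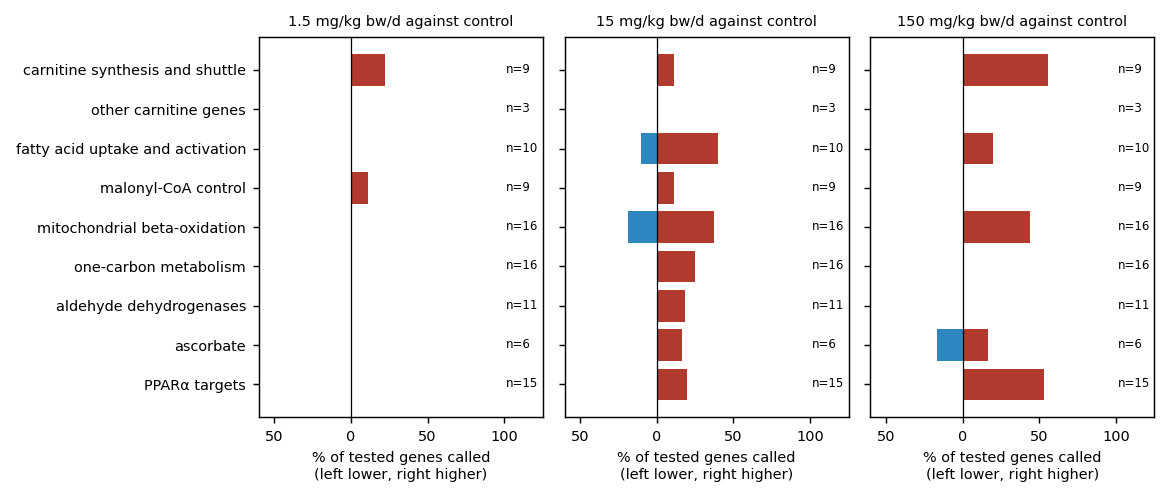
Share of tested genes called higher (to the right) or lower (to the left) than control in each gene list at the low, middle and high dose (x axes, percent of the tested genes, with their number as n). The 9 carnitine genes have 2, 1 and 5 calls, and mitochondrial beta-oxidation has 7 of 16 and the PPARα targets 8 of 15 at the high dose. Of all tested rows 0.674%, 7.57% and 1.49% were higher from the lowest to the highest dose.

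Genes of the steps before and after the shuttle were read in the same fit, and no test compared the lists with each other. Of 10 tested genes of fatty acid uptake and activation, 2 were higher and 0 lower than control at the high dose. Of all tested rows, 1.49% were higher and 0.682% lower there. The 2 genes were Slc27a2, a very-long-chain acyl-CoA synthetase and fatty acid transporter (log2FC 0.56 ± 0.10, adjusted p = 0.000201, limma), and Acsl1, a long-chain acyl-CoA synthetase that supplies the substrate of Cpt1a (0.72 ± 0.13, adjusted p = 0.000337). In the middle-dose group 4 were higher, among them Fabp1, the liver fatty acid binding protein (0.87 ± 0.20, adjusted p = 0.00191), and 1 was lower. In that group 7.57% of all tested rows were higher and 6.61% lower. At the low dose 0 of the 10 genes were called, where 0.674% of rows were higher and 0.525% lower. Of 16 tested genes of mitochondrial beta-oxidation, into which Cpt2 feeds, 7 were higher and 0 lower at the high dose, against the same 1.49% and 0.682% of all rows. Their median log2FC was 0.27, beside 0.28 for the carnitine genes. The smallest adjusted p were those of Eci2 (0.58 ± 0.10, adjusted p = 6.81e-05), Eci1 (0.48 ± 0.09, adjusted p = 0.00121) and Acaa2 (0.33 ± 0.07, adjusted p = 0.00233). Decr1 (0.34 ± 0.08) and Echs1 (0.24 ± 0.06) followed with the same adjusted p of 0.00872. At the middle dose 6 were higher and 3 lower, with Etfa up (0.60 ± 0.11, adjusted p = 0.000123) and Acads down (-0.54 ± 0.13, adjusted p = 0.00249). The shares of all rows there were again 7.57% higher and 6.61% lower. At the low dose 0 of the 16 genes were called.

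Malonyl-CoA inhibits Cpt1a, and none of the 9 tested genes that set its level (acetyl-CoA carboxylases, malonyl-CoA decarboxylase and AMP-activated kinase subunits) was called at the high dose by limma, where 1 was higher and 2 lower at an unadjusted p under 0.05, all against control. At the lower doses 1 was higher than control in each group, Prkag2 at the low dose (log2FC 0.58 ± 0.15, adjusted p = 0.0361) and Prkaa2 at the middle dose (0.37 ± 0.10, adjusted p = 0.00816), both subunits of that kinase. Of all rows, 0.674% were higher than control at the low dose and 1.49% at the high dose. At the middle dose 7.57% were, so that 1 of 9 there is near the background. Between doses, Mlycd, the decarboxylase that removes malonyl-CoA, was higher (0.29 ± 0.07, adjusted p = 0.00610) and Prkag2 lower (-0.57 ± 0.15, adjusted p = 0.0158) at the high than at the low dose, and Prkab1 (-0.36 ± 0.09, adjusted p = 0.00191) and Prkaa2 (-0.39 ± 0.10, adjusted p = 0.00360) were lower at the high than at the middle dose. Of all rows, 2.55% were higher and 2.06% lower in the former comparison, and 9.85% and 10.1% in the latter. At the middle against the low dose Prkag2 was lower (-0.88 ± 0.15, adjusted p = 3.55e-05), and Prkaa2 (0.37 ± 0.10, adjusted p = 0.00685) and Prkab1 (0.24 ± 0.09, adjusted p = 0.0464) were higher. There 10.9% of all rows were higher and 10.5% lower. Several genes of the shuttle are known targets of the fatty acid receptor PPARα. Of 15 other targets of this receptor 8 were higher and 0 lower at the high dose, with a median log2FC of 0.72, and 0 were called at the low dose by limma, where 0 had an unadjusted p under 0.05. At the high dose 1.49% of all rows were higher and 0.682% lower. At the middle dose 3 of the 15 targets were higher, where 7.57% of rows were. Ehhadh, the peroxisomal bifunctional enzyme, led the targets at the high dose (1.54 ± 0.12, adjusted p = 1.13e-13). Ppara itself was at 130.1 ± 29.1 scaled TPM in control mice (n = 14) and 194.3 ± 37.9 at the high dose (n = 14; log2FC 0.58 ± 0.12, adjusted p = 0.00187). The list of targets shares Acsl1 and Fabp1 with that of fatty acid uptake and activation. Whether the receptor had a part in the changes of the carnitine genes was not tested.

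Markers of other liver cells gave no call at the high dose against control, while some were called in comparisons with the middle dose. Of the tested markers of Kupffer cells (7), endothelial cells (6), stellate cells (5), cholangiocytes (3), adipocytes (2) and blood cells (6), 0 were called against control at the high dose by limma, where 1.49% of all rows were higher and 0.682% lower, and 1 stellate and 1 adipocyte marker were lower at an unadjusted p under 0.05. Of 6 hepatocyte markers Trf was lower there (log2FC -0.19 ± 0.05, adjusted p = 0.0234), and of 8 pericentral and 8 periportal markers 0 were called, with 1 higher and 1 lower at an unadjusted p under 0.05. The summed pericentral markers ranged from 1044 to 3694 scaled TPM in control mice and from 2238 to 4599 in high-dose mice, with medians of 2880 and 3351, and the summed periportal markers from 12506 to 26047 and from 18292 to 25188. The periportal list includes Alb, with a median of 19860 over all mice beside 469 for Pck1, the next highest. Its sum thus mostly follows Alb, which is also a hepatocyte marker here. Against control at the middle dose, the endothelial marker Pecam1 was lower (-0.52 ± 0.11, adjusted p = 0.000867), and the hepatocyte marker Ttr (0.42 ± 0.13, adjusted p = 0.0231) and the periportal marker Hsd17b13 (0.39 ± 0.13, adjusted p = 0.0278) were higher. Between the high and the middle dose, where Shmt2, Slc25a20 and Slc22a5 were higher and where 9.85% of all rows were higher and 10.1% lower, Pecam1 (0.39 ± 0.11, adjusted p = 0.00900), Kdr of endothelial cells (0.21 ± 0.07, adjusted p = 0.0377) and Sox9 of cholangiocytes (0.49 ± 0.18, adjusted p = 0.0439) were higher as well. Lower in that comparison were Hsd17b13 (-0.71 ± 0.13, adjusted p = 5.2e-05) and Gls2 (-0.40 ± 0.12, adjusted p = 0.0122) of periportal cells, Trf (-0.26 ± 0.05, adjusted p = 0.000179) and Ttr (-0.37 ± 0.13, adjusted p = 0.0331) of hepatocytes and Colec11 of stellate cells (-0.45 ± 0.15, adjusted p = 0.0233). At the middle against the low dose, where Shmt2 was lower and where 10.9% of all rows were higher and 10.5% lower, 8 markers were called: Oat, Sds, Hsd17b13, Gls2, Ttr and Oit3 were higher (log2FC from 0.31 to 0.63) and Apoa1 (-0.40) and Krt19 (-0.89) were lower. At the high against the low dose, where 2.06% of all rows were lower, Trf (-0.32 ± 0.05, adjusted p = 4.49e-05) and Apoa1 (-0.35 ± 0.11, adjusted p = 0.0473) of hepatocytes were lower. Their part in the results above was not tested.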

How the data were processed

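Liver RNA of 54 mice was sequenced by the authors as QuantSeq 3′ libraries and aligned to GRCm38 and quantified through nf-core/rnaseq, whose notes list STAR, Salmon and RSEM. The deposited signal was read as TPM that the authors rounded to whole numbers and scaled between mice, inferred from the values: 100% of values were within 0.001 of a whole multiple of 1 step per mouse, and these multiples sum to 948342 to 980641 per mouse. Depth is unknown, and no test for counts was run. Groups came from the labels, and nothing pairs mice across groups. Genes were tested with limma 3.58.1 in R 4.3.3 on log2(value + 1). A single linear model held the 4 groups, variances were moderated with a mean-dependent trend, and the pipeline was tested on simulated data. Correlations were permuted in Python 3.11.15. The members and gene lists were chosen with earlier results of these data known. All 10 members are named, and of each other list up to 4 genes with the smallest adjusted p at the high dose and up to 2 at each lower dose. Echs1, which tied with Decr1, is named as well. For likeness the 3 rows with the highest r were taken for each member, some of which are not reported here. Alternatives were pseudocounts of 0.1 and 5, no filter or a minimum mean of 5, quantile normalization, 2 groups alone, a replicate block, array weights, robust eBayes, and each mouse left out. Metabolites and histology were not analysed here. The authors' p-values were not used.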

Additional observations from a re-analysis of the deposited data

How the results depend on the processing

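The count of carnitine genes called rested on a few values close to the threshold. Against control, 2 were called at the low dose, and 1 with no filter on low values, with the replicate block and with the 2 groups alone. In the middle-dose group 1 was called, and 2 with a minimum mean of 5, a filter that Slc22a5, with a mean of 4.56, did not pass. In the high-dose group 5 were called, and 3 with no filter, with the replicate block and without the 7 libraries of low sum (each time without Shmt2 and Slc25a20), an alternative that was chosen after seeing the data. There 4 were called with quantile normalization and with a pseudocount of 0.1, which ended the call of Slc25a20. Where a log2FC beyond 0.5 was also required, 0, 0 and 1 were left from the lowest to the highest dose, and 0, 1 and 0 for the middle against the low, the high against the low and the high against the middle dose. With each mouse left out in turn, the counts ran from 1 to 2, 1 to 3 and 3 to 5 against control. The mice that carry the same replicate number were not paired (mean correlation -0.0025 over 79 pairs, 12.7% above 0.1), and the replicate block ended the calls of Shmt2 at the low dose (adjusted p = 0.0648, limma) and of Shmt2 and Slc25a20 at the high dose (0.0701 and 0.0841), and no other call of these genes.

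Differences near 0 that were not called changed sign. With the replicate block, the high against the middle dose gave log2FC values of -0.0161 for Shmt1, -0.00364 for Aldh9a1 and -8.79e-05 for Bbox1. With array weights it gave -0.0252 for Shmt1 and -0.0239 for Aldh9a1, Shmt1 gave -0.0352 at the low dose against control, and the middle against the low dose gave -0.00499 for Slc25a20 and -0.0302 for Crat. Without the 7 libraries, the high against the middle dose gave -0.0329 for Shmt1, -0.0274 for Aldh9a1 and -0.0421 for Bbox1, Cpt1a gave 0.0359 at the high against the low dose, and against control Shmt1 gave -0.0712 at the low dose and Crat 0.0109 at the middle dose, where a pseudocount of 5 gave 0.00842. Leaving out 1 mouse, the ranges that crossed 0 were, at the low dose against control, -0.0539 to 0.0613 for Shmt1, -0.00268 to 0.0728 for Cpt2 and -0.136 to 0.0738 for Crat. In the middle-dose group they were -0.0748 to 0.0169 for Shmt2, -0.0698 to 0.0165 for Slc25a20 and -0.105 to 0.0798 for Crat. Between doses they were -0.0926 to 0.148 for Crat at the middle against the low dose, and, at the high against the middle dose, -0.0329 to 0.0322 for Shmt1, -0.0274 to 0.0238 for Aldh9a1 and -0.0421 to 0.0436 for Bbox1.

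Of the pairs of genes, 14 were called, and 9 without the 2 mice farthest from the median (permutation test, 36 pairs). Quantile normalization ended the calls of Aldh9a1 with Bbox1 (r = 0.26, adjusted p = 0.154) and of Bbox1 with Slc25a20 (r = 0.29, adjusted p = 0.0729). Removing the first principal component as well as the group means ended that of Aldh9a1 with Bbox1 (r = 0.30, adjusted p = 0.0676). Without the 7 libraries the r of Bbox1 with Shmt1, Shmt2 and Aldh9a1 was -0.0500, -0.0685 and -0.102, and by Spearman's rho, also added after seeing the data, 11 pairs were called. The cause of these changes was not tested. A level of 1 whole TPM limits what can be said of Slc22a5 and Crat, and the unknown depth means that no sampling error of a single value can be given.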

Other observations

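Around the synthesis genes, lists for one-carbon metabolism, other aldehyde dehydrogenases and ascorbate were read in the same fit (limma). Of 16 tested genes of one-carbon and glycine metabolism, in which Shmt1 and Shmt2 work, 4 were called higher at the middle dose, where 7.57% of all rows were, led by Dld (log2FC 0.34 ± 0.07, adjusted p = 0.000374), a subunit of the glycine cleavage system, and Mthfd1 (0.32 ± 0.10, adjusted p = 0.0175), an enzyme of folate interconversion. At the low and the high dose 0 of the 16 were called, with 1 lower at an unadjusted p under 0.05 at each. Of 11 tested aldehyde dehydrogenases other than Aldh9a1, 2 were called higher at the middle dose, with the same background, Aldh8a1 (0.52 ± 0.09, adjusted p = 7.25e-05) and Aldh6a1 (0.31 ± 0.08, adjusted p = 0.00731), and 0 at the low and at the high dose, where 0 and 5 were higher and 1 and 1 lower at an unadjusted p under 0.05.

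Bbox1 and Tmlhe need ascorbate to work. Of 6 tested genes of ascorbate synthesis and uptake, Slc23a2, an ascorbate transporter, was higher at the high dose (log2FC 0.83 ± 0.18, adjusted p = 0.00449) and Gulo, the last enzyme of ascorbate synthesis, was lower (-0.37 ± 0.11, adjusted p = 0.0489). At that dose 1.49% of all rows were higher and 0.682% lower. In the middle-dose group Rgn, an enzyme of ascorbate synthesis, was higher (0.38 ± 0.11, adjusted p = 0.0123), where 7.57% of all rows were. No gene of this list was called at the low dose, where 1 was lower at an unadjusted p under 0.05.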
